A study of Mus musculus with 48 samples.

Results

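The liver arrays of FGF21-Tg mice (3 arrays) and of their wild-type controls (WT, 3 arrays) are described here across all genes, 6 of the 48 Illumina mouse arrays in the series. They were chosen by their titles. FGF21-Tg mice carry a transgene for fibroblast growth factor 21 under the apolipoprotein E promoter, which directs it to hepatocytes. Both groups were male, 3 months old, on the C57Bl/6J background and fed without limit. Each array combined cRNA of 1 to 3 mice, so arrays and not mice are counted. The fit also held liver arrays of separate C57Bl/6J males of the same age: 3 fed ad libitum (AL), 3 fasted for 24 hr and 2 calorie-restricted for 2 weeks with food at 40% of their usual intake (CR). CR replicates 3 and 4 were left out, since the adipocyte transcript Adipoq read 55570 and 60070 in raw intensity there, against 168.5 to 277.3 on the other 14 liver arrays. All 3 FGF21-Tg arrays and WT replicate 3 lay on 1 chip (chip 5), whereas WT replicates 1 and 2 lay on another (chip 4).

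FGF21 is a hormone of the fasted liver that signals through FGF receptors bound to the coreceptor beta-klotho. Growth hormone acts on hepatocytes through the transcription factor STAT5, and its pulsatile secretion in male rodents and steadier secretion in females set the sex-biased expression of many liver enzymes, urinary proteins and serpins. Male-biased and female-biased below refer to this textbook pattern in adult mouse liver.

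Values are log2 signals after background correction and quantile normalization, and a probe counted as detected at a detection p under 0.05. A gene was called changed where limma, fitted across 8902 genes, gave an adjusted p (Benjamini-Hochberg) below 0.10 with more than 2-fold between groups. A change was said to hold on the chip when all 3 FGF21-Tg arrays lay beyond WT replicate 3 on the called side and differed from it by more than 2-fold on average. That comparison rests on a single WT array and is a description. A second limma fit with the chip as a block gave a test, in which WT replicate 3 alone carries the contrast.

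Livers of FGF21-Tg mice had 151 changed genes, 1.70% of those tested, of which 79 were higher (0.887%) and 72 lower (0.809%). Besides Fgf21 itself, the largest fitted differences were those of cytochrome P450 genes and of a steroid dehydrogenase gene: the female-biased Cyp2b9 and Cyp2b13 rose, and the male-biased Cyp4a12a, Cyp4a12b and Hsd3b5 fell. The changed genes for urinary proteins, serpins and complement proteins all fell, and the metallothionein genes Mt1 and Mt2 and 3 organic anion or bile acid carriers rose. Of the 151 genes, 117 held on the chip (77.5%). Of all genes tested 3.25% held, a contrast that the call on the same arrays partly fixes. By direction the 117 were 56 of the 79 higher genes, against 1.88% of all genes, and 61 of the 72 lower genes, against 1.37%. The signals of FGF21-Tg and WT arrays did not overlap for 148 of the 151, against 19.0% of all genes, which the call on the same 6 arrays largely fixes. The median log2 difference over all genes tested was 0.00, which quantile normalization largely fixes. With scaling by the median in place of quantiles it was 0.08. Fewer genes passed with the 2 further CR arrays in the fit (49) and with the normalized values the authors deposited (50).

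**Figure D1:**
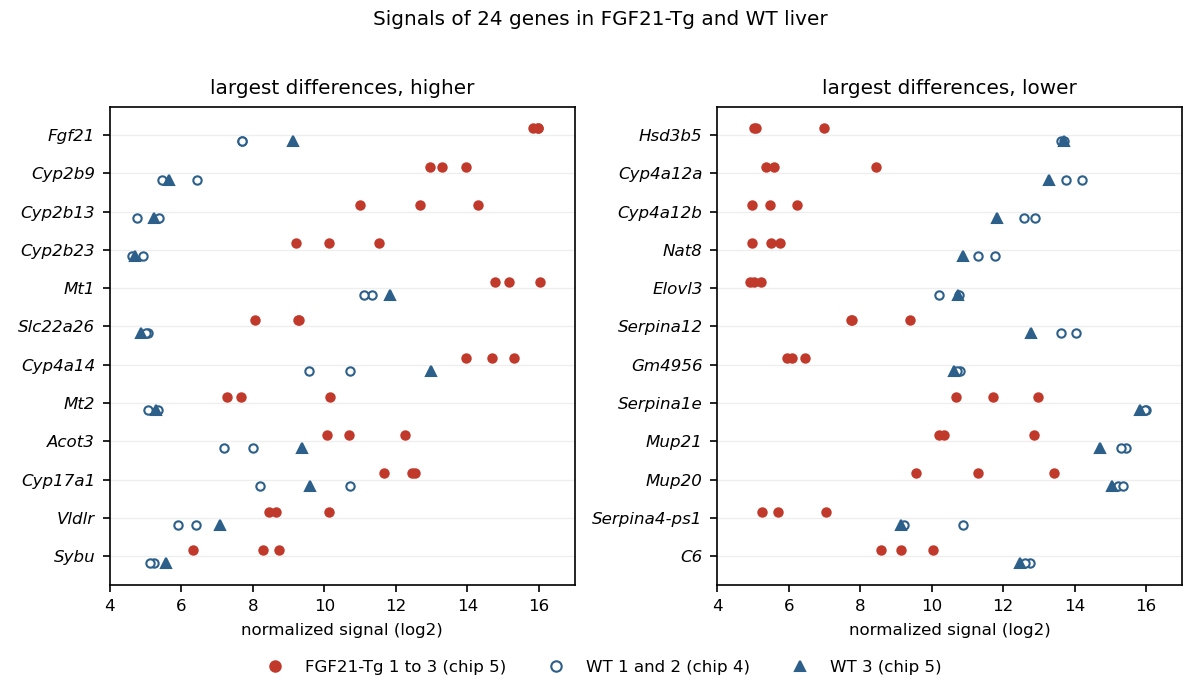
Normalized log2 signals (horizontal axis) of the 12 genes with the largest rises and the 12 with the largest falls, 1 point per array, with FGF21-Tg above WT in each row. Cyp2b9 lay between 12.95 and 13.97 on the FGF21-Tg arrays and between 5.45 and 6.43 on the WT arrays, and for Cyp4a14 the WT array of chip 5 (triangle, 12.99) lay nearest to the FGF21-Tg arrays.

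The transgene was read first. Fgf21 had 15.97, 15.97 and 15.84 in FGF21-Tg liver and 7.70, 7.69 and 9.12 in WT liver (log2 signal of replicates 1 to 3). The groups did not overlap (difference 7.75, SE 0.34, adjusted p = 1.13e-08). The FGF21-Tg values were near the highest signal on these arrays, 16.08, so this difference may understate the change and the 3 FGF21-Tg arrays cannot be ranked by it. WT replicate 3 was 1.43 above the mean of the other 2 WT arrays, and against it alone the difference was 6.80. Of 13 tested genes of FGF21 receptors and signalling, Fgf21 was the only one to pass. Klb, which encodes beta-klotho, had 10.14, 10.37 and 9.94 in FGF21-Tg liver and 9.31, 9.92 and 9.39 in WT liver (difference 0.62, adjusted p = 0.101), and its groups did not overlap. Y-linked transcripts were detected on all 6 arrays, and the labels give all mice as male.

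Median signals of these 6 arrays before normalization were 182.2 to 200.7, 42.5 to 45.1% of probes were detected, and replicates correlated at 0.976 or more in FGF21-Tg and 0.982 or more in WT liver. None of 9 hepatocyte markers passed, among them Trf, Ttr, Apoa1 and Ahsg, which lay between 15.90 and 16.08 on all 6 arrays, at the top of the scale, where a difference could not be read. Markers of other cell types gave no passing gene except Cela1, which belongs to the pancreas list and is described below. In whole tissue, fewer cells of a type and less RNA per cell cannot be told apart.

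Genes with a known sex bias in mouse liver made up 33 of the 151. Of the 58 such genes tested, 56.9% changed, against 1.70% of all genes. Of 31 male-biased genes, 22 fell (0.809% of all genes fell), none rose and all 31 had negative differences (median -1.83). All 22 held on the chip, and 16 passed with the chip as a block. All 22 also lay below all AL arrays, as did 13.1% of all genes. Of 27 female-biased genes, 11 rose (0.887% of all genes rose) and none fell (median 0.97), 10 held on the chip and 4 passed with the chip as a block. Of these 27 genes, 23 had positive and 4 had negative differences, the lowest being -0.69. Both lists were compiled with the study's named genes and earlier results of these data known. Neither the shares changed nor the directions are therefore independent evidence. Hsd3b5, a male-specific steroid dehydrogenase, had 6.99, 5.03 and 5.07 in FGF21-Tg liver and 13.62, 13.71 and 13.70 in WT liver (difference -7.98, SE 0.45, adjusted p = 1.23e-07, detected on 1 of 3 FGF21-Tg arrays), and AL liver averaged 13.62. Elovl3, a fatty acid elongase, was not detected in FGF21-Tg liver (5.03, 4.91 and 5.23, against 10.76, 10.21 and 10.72 in WT liver) and was at least 25.1-fold lower (adjusted p = 1.74e-06). Alas2, the erythroid form of the first enzyme of heme synthesis, had 9.67, 8.03 and 9.81 in FGF21-Tg liver and 11.83, 11.71 and 11.53 in WT liver (difference -2.52, SE 0.34, adjusted p = 0.000819).

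The 3 FGF21-Tg arrays did not change to the same extent. Over the 22 male-biased genes that fell, the median distance below the WT mean was 2.23 on replicate 1, 3.25 on replicate 2 and 2.62 on replicate 3. Over the 11 female-biased genes that rose, the median distance above the WT mean was 1.89, 2.95 and 2.86 in the same order. Replicate 1 was the array nearest to WT for 81 of the 151 changed genes, against 35 each for replicates 2 and 3.

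**Figure D2:**
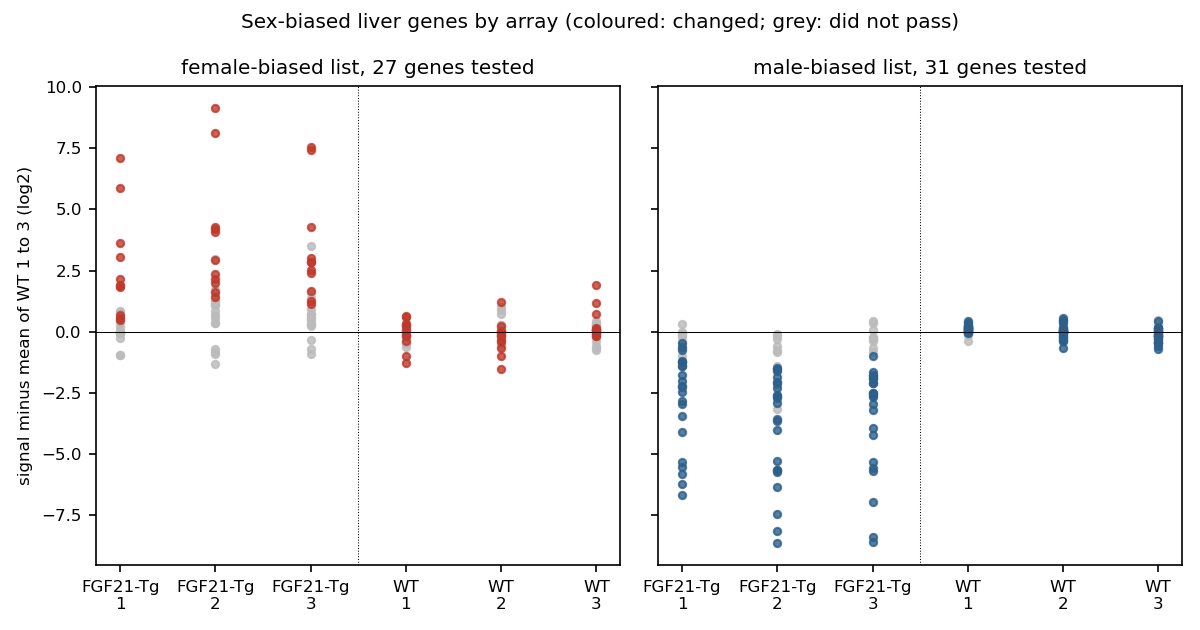
Signals of 27 female-biased (left) and 31 male-biased (right) liver genes on each array, as the log2 difference from the mean of WT replicates 1 to 3, 1 point per gene. Coloured points are changed genes, 11 higher on the left and 22 lower on the right, and FGF21-Tg replicate 1 was the nearest to WT of the 3 FGF21-Tg arrays by its median.

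Promoter sequences from RefSeq (GRCm38.p6, 250 bases before to 50 after each start) were matched for 65 of the 79 higher and 52 of the 72 lower genes. They were searched on both strands for the STAT core TTCNNNGAA, a palindrome, and for TGATGNAA, a C/EBP-ATF composite site. TTCNNNGAA was in 8.05% of 87 promoters of higher genes and 10.8% of 74 promoters of lower genes, against 7.03% of 9372 promoters of all tested genes. TGATGNAA was in 3.45% and 4.05%, against 2.41% of all. Of the male-biased genes that fell, 1 of 15 matched had TTCNNNGAA (Keg1), and of the female-biased genes that rose, 1 of 8 (Slc22a26). The stretches around it, with the motif in capitals, are shown for these sex-biased genes, for the hepcidin gene Hamp2 and for Igfals, a growth hormone target in liver. Slc22a26 and Hamp2 rose, and Keg1 and Igfals fell. A match is a description of the letters and not a binding site.
Slc22a26 (chr19:7802760-7802848, minus strand): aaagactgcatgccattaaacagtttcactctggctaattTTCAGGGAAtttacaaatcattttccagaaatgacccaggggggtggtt
Hamp2 (chr7:30924227-30924315, minus strand): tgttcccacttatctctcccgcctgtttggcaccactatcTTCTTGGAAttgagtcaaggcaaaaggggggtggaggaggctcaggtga
Keg1 (chr19:12695577-12695731, plus strand): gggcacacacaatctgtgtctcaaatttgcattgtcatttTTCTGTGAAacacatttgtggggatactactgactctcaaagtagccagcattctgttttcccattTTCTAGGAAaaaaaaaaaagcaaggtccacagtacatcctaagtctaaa
Igfals (chr17:24877594-24877656, plus strand): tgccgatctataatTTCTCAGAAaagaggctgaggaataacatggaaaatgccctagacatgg
Igfals (chr17:24878133-24878221, plus strand): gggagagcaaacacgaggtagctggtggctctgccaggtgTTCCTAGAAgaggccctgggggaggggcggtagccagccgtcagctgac
Keg1 holds the motif at 2 positions, starting 173 and 107 bases before the start. Igfals has a match at 2 of its listed starts, 236 and 58 bases before them. In Slc22a26 and Hamp2 it begins 141 and 94 bases before the start.

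Of 156 genes tested for enzymes of xenobiotic metabolism, 10 rose and 15 fell (16% against 1.70%), and 22 of these 25 held on the chip. Among 33 genes of P450 families 1 to 3, whose products oxidize drugs and steroids, 7 rose and 2 fell. Cyp2b9 had 12.95, 13.97 and 13.28 in FGF21-Tg liver and 6.43, 5.45 and 5.67 in WT liver (difference 7.55, SE 0.31, adjusted p = 7.78e-09). The WT values lay at the floor of the scale, where 1 of 3 arrays detected the probe. Cyp2b13 had 10.99, 14.29 and 12.68 in FGF21-Tg liver and 5.37, 4.77 and 5.25 in WT liver, where it was not detected, and was at least 104-fold higher (adjusted p = 2.46e-06). Cyp2b23 had 9.20, 11.53 and 10.14 in FGF21-Tg liver and 4.91, 4.62 and 4.70 in WT liver and was at least 20.3-fold higher (adjusted p = 2.54e-06). For both, FGF21-Tg replicate 2 was the highest and replicate 1 the lowest array, with a gap of more than 2 log2 units between them. Without any 1 FGF21-Tg array, Cyp2b13 was detected on too few arrays to be tested. Where a gene was detected on only some arrays of a group, its difference was read in part against signals at the floor. A fold written as a lower bound sets the mean of the detected group against, per array, the higher of the probe's own signal and the lowest detected signal.

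Cyp2b10, the member of this family induced by phenobarbital through the receptor CAR, had 9.66, 10.01 and 10.71 in FGF21-Tg liver and 8.11, 6.84 and 8.56 in WT liver (difference 2.29, SE 0.40, adjusted p = 0.00839). Its difference from WT replicate 3 was 1.56 and it did not pass with the chip as a block (adjusted p = 0.284). Cyp2c39 and Cyp2c38, not detected in WT liver, were at least 2.79-fold (adjusted p = 0.00036) and 3.06-fold (adjusted p = 0.000253) higher, and both passed with the chip as a block. Cyp3a13 rose by 1.03 but differed from WT replicate 3 by 0.97, just under 2-fold. The call for Cyp3a13 was lost without FGF21-Tg replicate 3, WT replicate 1 or WT replicate 2 (differences 0.73 to 1.08). Other abundant members of these families had small differences that did not pass, such as Cyp3a11 (0.39, adjusted p = 0.55), Cyp2c29 (0.16, adjusted p = 0.76) and Cyp1a2 (-0.28, adjusted p = 0.884). The 2 that fell were Cyp2d9, a male-biased testosterone hydroxylase, and Cyp2u1. Cyp2d9 had 13.32, 12.92 and 12.37 in FGF21-Tg liver and 15.61, 15.58 and 15.50 in WT liver (difference -2.69, SE 0.19, adjusted p = 1.74e-06), and its difference against WT replicate 3 was -2.63. Probes for close relatives such as Cyp2b9, Cyp2b10, Cyp2b13 and Cyp2b23 can share targets, and which transcript each probe bound was not tested.

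Among 20 genes of other P450 families, 2 rose and 3 fell, and all 5 held on the chip. Cyp4a12a, a male-biased fatty acid hydroxylase, had 8.43, 5.596 and 5.35 in FGF21-Tg liver and 14.20, 13.76 and 13.28 in WT liver (difference -7.29, SE 0.61, adjusted p = 8.32e-06). FGF21-Tg replicate 1 kept the highest signal of the 3 and was the only one with the probe detected. Its close relative Cyp4a12b had 6.22, 4.98 and 5.47 in FGF21-Tg liver and 12.58, 12.90 and 11.84 in WT liver (difference -6.88, SE 0.34, adjusted p = 3.51e-08, detected on 1 of 3 FGF21-Tg arrays). Cyp7b1, the oxysterol hydroxylase of the alternative bile acid pathway, had 11.11, 11.35 and 11.43 in FGF21-Tg liver and 13.93, 13.95 and 13.98 in WT liver (difference -2.65, SE 0.27, adjusted p = 7.34e-05), and within each group the arrays lay close together. Cyp17a1, which makes androgen precursors, rose (11.66, 12.46 and 12.53 in FGF21-Tg liver and 8.21, 10.71 and 9.59 in WT liver, difference 2.71, SE 0.54, adjusted p = 0.0164). Cyp4a14, a fatty acid hydroxylase induced through PPAR alpha, had 14.70, 15.30 and 13.95 in FGF21-Tg liver and 10.73, 9.56 and 12.99 in WT liver (difference 3.56, SE 0.66, adjusted p = 0.0111). WT replicate 3 was 2.85 above the other 2 WT arrays, so that on the chip the difference was 1.66 and did not pass in the block fit (adjusted p = 0.327).

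Conjugating and other phase I enzymes mostly fell where they changed. Nat8, an N-acetyltransferase gene, had 5.50, 4.97 and 5.74 in FGF21-Tg liver, not detected, and 11.29, 11.76 and 10.89 in WT liver, and was at least 42.1-fold lower (adjusted p = 4.23e-08). Gstp1, 1 of 21 glutathione S-transferase genes tested and the only one to pass, had 14.38, 13.74 and 13.85 in FGF21-Tg liver and 16.05, 15.68 and 15.61 in WT liver (difference -1.79, SE 0.21, adjusted p = 0.000253). Ugt2b1 (-1.61) and Ugt3a1 (-1.09), which encode glycosyltransferases, were the 2 of 10 that passed. Sult2a8 (-2.05), Sult5a1 (-1.55) and Keg1 (-1.51) fell, and the sulfotransferase gene Sult1d1 rose by 1.08, with a difference of 0.92 from WT replicate 3. Of 54 further phase I genes, those for aldehyde oxidase Aox3 (-1.25) and the carboxylesterases Ces3b (-1.36) and Ces1f (-1.03) fell and none rose. Aox3, Ces3b, Gstp1, Ugt2b1, Ugt3a1 and Sult2a8 also passed with the chip as a block, whereas Ces1f missed 2-fold on the chip (-0.93). The call for Ces1f was lost without FGF21-Tg replicate 3, WT replicate 1 or WT replicate 2 (differences -0.77 to -1.04). The call for Ugt3a1 was lost without FGF21-Tg replicate 1 (difference -0.96). The call for Sult1d1 was lost without FGF21-Tg replicate 2 (difference 0.91).

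**Figure D3:**
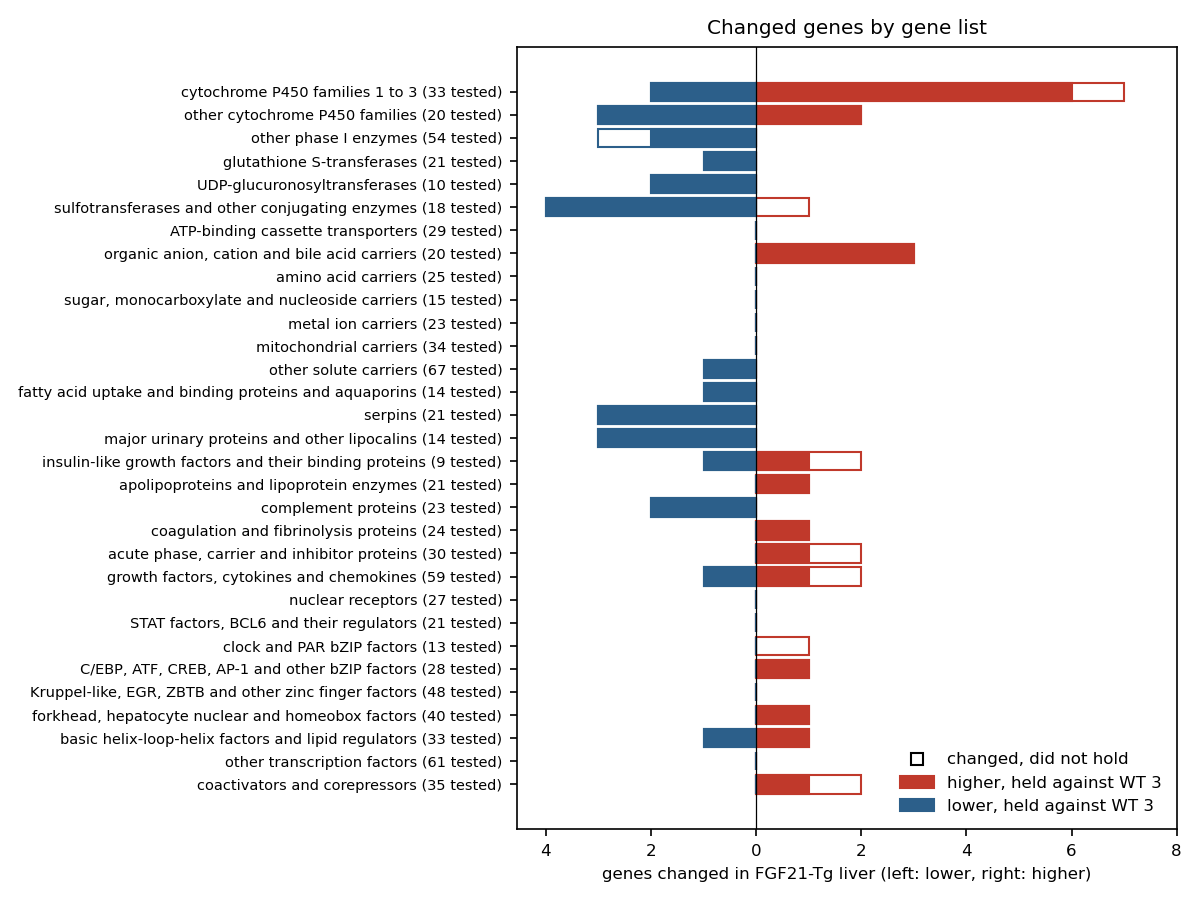
Number of changed genes in each list of xenobiotic enzymes, transporters, secreted proteins and transcription factors (bars to the left, lower in FGF21-Tg liver; to the right, higher), with filled bars for changes that held against WT replicate 3. P450 families 1 to 3 had 7 rises and 2 falls among 33 genes, and lists such as the 29 ATP-binding cassette transporters had none.

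Of 227 transporter genes tested, 3 rose and 2 fell, a share near that of all genes (2.2% against 1.70%), and all 5 held on the chip. The rises were all among 20 carriers of organic anions, cations and bile acids. Slc22a26, an organic anion carrier gene, had 8.06, 9.26 and 9.28 in FGF21-Tg liver and 5.07, 5.01 and 4.88 in WT liver, where it was not detected, and was at least 7.56-fold higher (adjusted p = 1.98e-06). It passed with the chip as a block, and FGF21-Tg replicate 1 was again the lowest of the 3. Without any 1 FGF21-Tg array it was detected on too few arrays to be tested. Slc51b, a subunit of the basolateral bile acid exporter, was at least 2.46-fold higher (adjusted p = 0.0629), with 6.31, 7.47 and 7.97 in FGF21-Tg liver and 5.68, 5.52 and 5.72 in WT liver. The call for Slc51b was lost without FGF21-Tg replicate 2, FGF21-Tg replicate 3, WT replicate 1 or WT replicate 2 (differences 1.25 to 1.63). Slco1a4, a female-biased organic anion carrier, had 9.24, 11.12 and 10.03 in FGF21-Tg liver and 8.60, 9.01 and 8.70 in WT liver (difference 1.36, SE 0.36, adjusted p = 0.0673). The call for Slco1a4 was lost when FGF21-Tg replicate 2 was left out (0.86) and without 4 of the 5 other arrays, FGF21-Tg replicate 1 being the exception.

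The falls were Slc13a2, a dicarboxylate carrier (6.53, 6.21 and 5.22 in FGF21-Tg liver and 8.14, 8.08 and 7.47 in WT liver, difference -1.91, SE 0.39, adjusted p = 0.0206, detected on 2 of 3 FGF21-Tg arrays), and Aqp4, a water channel (5.45, 6.42 and 5.33 in FGF21-Tg liver and 6.94, 7.34 and 7.82 in WT liver, difference -1.63, SE 0.37, adjusted p = 0.0347, detected on 1 of 3 FGF21-Tg arrays). The call for Aqp4 was lost without FGF21-Tg replicate 3 or WT replicate 2 (differences -1.42 to -1.65). No gene passed among 29 ATP-binding cassette transporters, 25 amino acid carriers, 15 sugar, monocarboxylate and nucleoside carriers, 23 metal ion carriers and 34 mitochondrial carriers. Over all 8902 genes limma gave 1593 at an unadjusted p under 0.05. Among the metal ion carriers, Slc30a1, which exports zinc, had 9.86, 9.83 and 10.001 in FGF21-Tg liver and 9.11, 8.99 and 9.03 in WT liver (difference 0.86, adjusted p = 0.0024), groups that did not overlap but differed by less than 2-fold. The male-biased carrier Slco1a1 was read by a dim probe (5.55, 5.78 and 5.72 in FGF21-Tg liver, not detected, and 6.75, 6.72 and 6.17 in WT liver) and did not pass (adjusted p = 0.197).

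Secreted proteins gave 8 rises and 10 falls among 199 genes tested (9.05% against 1.70%), 15 of which held on the chip. Of 21 serpin genes, which encode protease inhibitors and relatives, 3 fell. Serpina12, the adipokine vaspin, had 9.40, 7.75 and 7.76 in FGF21-Tg liver and 13.61, 14.04 and 12.78 in WT liver (difference -5.17, SE 0.41, adjusted p = 4.89e-06). Serpina1e, an alpha-1-antitrypsin gene with male-biased expression, had 12.97, 10.67 and 11.71 in FGF21-Tg liver and 16.002, 15.97 and 15.84 in WT liver (difference -4.15, SE 0.38, adjusted p = 2.26e-05). Its relatives did not pass: Serpina1a differed by -0.21 (adjusted p = 0.376) and Serpina1d by -0.02 (adjusted p = 0.963), both with signals near the top of the scale. Serpina4-ps1, whose symbol marks a pseudogene, fell as well (7.04, 5.26 and 5.69 in FGF21-Tg liver and 10.88, 9.22 and 9.14 in WT liver, difference -3.75, SE 0.50, adjusted p = 0.000803, detected on 1 of 3 FGF21-Tg arrays).

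Among 14 genes for major urinary proteins and other lipocalins, which carry pheromones and small lipids, Mup21, Mup20 and Mup5 fell. Mup20 had 13.43, 9.56 and 11.28 in FGF21-Tg liver and 15.22, 15.36 and 15.05 in WT liver (difference -3.79, SE 0.62, adjusted p = 0.00517). Mup21 had 12.86, 10.21 and 10.34 in FGF21-Tg liver and 15.43, 15.29 and 14.70 in WT liver (difference -4.002, SE 0.52, adjusted p = 0.000708). In both genes FGF21-Tg replicate 1 lay nearest to WT and replicate 2 lowest, and the groups did not overlap. Mup5 had 15.02, 11.90 and 12.81 in FGF21-Tg liver and 15.59, 15.22 and 15.64 in WT liver (difference -2.23, SE 0.52, adjusted p = 0.0394), and replicate 1 lay close to the lowest WT array. The call for Mup5 was lost without FGF21-Tg replicate 3, WT replicate 1 or WT replicate 2 (differences -2.02 to -2.36). Mup2 (15.85, 12.83 and 15.72 in FGF21-Tg liver and 15.92, 15.98 and 16.06 in WT liver) and Mup6 (15.78, 12.32 and 14.94 in FGF21-Tg liver and 15.81, 15.87 and 15.86 in WT liver) were low on FGF21-Tg replicate 2 and did not pass (adjusted p = 0.275 and 0.193). Major urinary protein genes are near-identical copies, so these probes may read several of them.

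Of 23 complement genes, C6 and C8b, both components of the membrane attack complex, fell. C6 had 9.15, 8.58 and 10.03 in FGF21-Tg liver and 12.73, 12.60 and 12.46 in WT liver (difference -3.35, SE 0.28, adjusted p = 8.35e-06), and C8b had 12.61, 11.38 and 12.26 in FGF21-Tg liver and 13.21, 13.22 and 13.28 in WT liver (difference -1.15, SE 0.23, adjusted p = 0.0188). The call for C8b was lost without FGF21-Tg replicate 2 (difference -0.80). C8a, whose product pairs with that of C8b, did not pass (11.98, 10.01 and 12.24 in FGF21-Tg liver and 12.36, 12.02 and 12.18 in WT liver, adjusted p = 0.373), and only FGF21-Tg replicate 2 lay far below WT. Hamp2, a hepcidin gene, rose (15.50, 15.91 and 15.28 in FGF21-Tg liver and 13.73, 14.21 and 12.95 in WT liver, difference 1.93, SE 0.38, adjusted p = 0.0164), with a difference of 2.61 on the chip. Its paralogue Hamp, which encodes the iron hormone hepcidin itself, did not pass (difference 0.04, adjusted p = 0.923).

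FGF21-Tg replicate 3 stood apart for acute phase genes. Saa1 had 5.51, 5.43 and 11.54 in FGF21-Tg liver and 6.41, 5.90 and 5.53 in WT liver, Lcn2 had 9.29, 8.41 and 14.87 in FGF21-Tg liver and 7.39, 7.57 and 6.39 in WT liver, and Orm2 had 11.60, 9.13 and 15.30 in FGF21-Tg liver and 11.16, 10.92 and 10.70 in WT liver. In each, the third FGF21-Tg array was the highest by more than 3 log2 units, and none passed (adjusted p = 0.623, 0.157 and 0.637). Fgl1, a hepatokine, rose across the group (13.98, 12.80 and 14.91 in FGF21-Tg liver and 12.52, 11.57 and 12.11 in WT liver, difference 1.83, SE 0.44, adjusted p = 0.0458) but without FGF21-Tg replicate 3 its difference was 1.33 and did not pass (adjusted p = 0.127). Without WT replicate 2 it did not pass either (1.59, adjusted p = 0.195). Itih3, which encodes a hyaluronan-binding inhibitor chain, rose by 1.003 (adjusted p = 0.0758), and by 0.58 without FGF21-Tg replicate 3 (adjusted p = 0.118). Its call was also lost without WT replicate 1 or WT replicate 2 (differences 1.04 and 0.90). Itih3 differed from WT replicate 3 by 0.87 and did not hold on the chip. Lbp, the lipopolysaccharide-binding protein, is in no list and was picked after its values were seen. It was higher on all 3 arrays (11.22, 10.91 and 11.57 in FGF21-Tg liver and 9.96, 9.83 and 10.14 in WT liver, difference 1.26, SE 0.16, adjusted p = 0.000708), held on the chip and kept the call without FGF21-Tg replicate 3 (1.09).

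Beside these genes, the 11 Kupffer cell and macrophage markers tested all had positive differences (median 0.37), and none passed. Sums were taken over all list members on the array, tested or not. For the 12 Kupffer cell and macrophage markers the linear sum was 29040 to 36220 in FGF21-Tg liver and 21700 to 24200 in WT liver, without overlap. Of 10 stellate cell and fibroblast markers tested, 9 had positive differences (median 0.33) and none passed. The sum over the 11 on the array was 17850 to 22940 in FGF21-Tg liver and 12440 to 13770 in WT liver, again without overlap. Dcn, which encodes the matrix proteoglycan decorin, had 13.97, 13.55 and 13.73 in FGF21-Tg liver and 12.98, 13.07 and 13.24 in WT liver, a difference of 0.66 (adjusted p = 0.0396) that was under 2-fold. Clec4f, a defining Kupffer cell marker, had 10.61, 10.75 and 11.33 in FGF21-Tg liver and 10.64, 10.70 and 10.50 in WT liver. The 9 neutrophil markers on the array, of which 3 were tested, summed to 515.3 to 937.8 in FGF21-Tg liver and 392.3 to 497 in WT liver. S100a8 was highest on FGF21-Tg replicate 3 (6.93, 6.96 and 8.76 in FGF21-Tg liver and 6.39, 6.76 and 6.34 in WT liver). The part of these cells in the acute phase values was not tested.

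**Figure D4:**
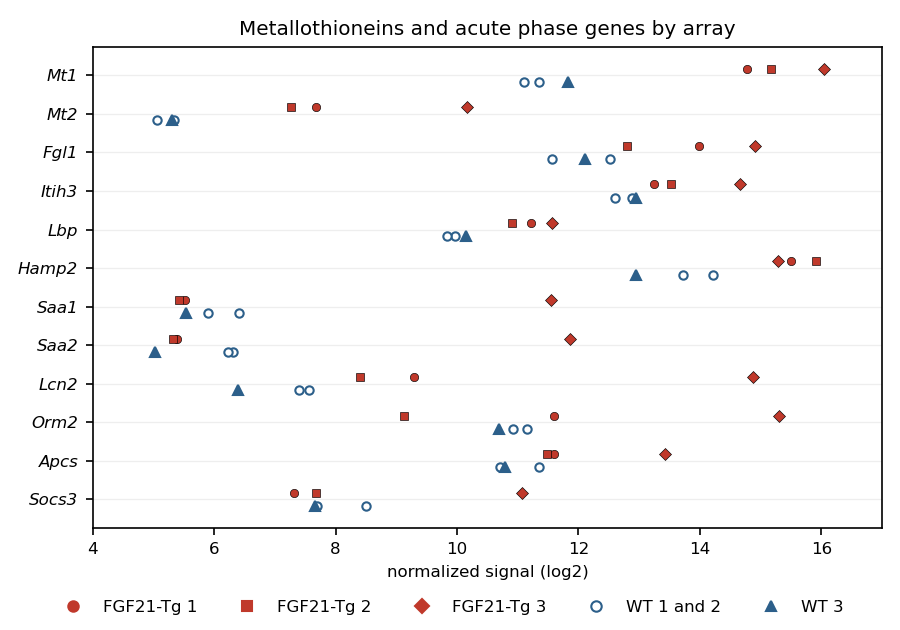
Normalized log2 signals (horizontal axis) of metallothionein and acute phase genes, 1 point per array, with FGF21-Tg above WT in each row. Saa1, Saa2, Lcn2 and Orm2 were far above the other arrays on FGF21-Tg replicate 3 (diamonds). Genes with all 3 FGF21-Tg arrays above WT included Mt1, Mt2, Lbp, Hamp2, Fgl1 and Itih3, and also Lcn2.

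Among insulin-like growth factors and their binding proteins, 2 of 9 rose and 1 fell. Igfals, which stabilizes circulating IGF-1, had 12.30, 12.03 and 11.72 in FGF21-Tg liver and 13.05, 12.91 and 13.30 in WT liver (difference -1.07, SE 0.18, adjusted p = 0.00567) and passed with the chip as a block (-1.28, adjusted p = 0.0359). The call for Igfals was lost without FGF21-Tg replicate 3 or WT replicate 3 (differences -0.92 to -0.96). Igfbp1, a binding protein induced in fasting, had 12.21, 11.96 and 12.76 in FGF21-Tg liver and 10.98, 9.68 and 10.36 in WT liver (difference 1.97, SE 0.50, adjusted p = 0.0582). The call for Igfbp1 was lost without FGF21-Tg replicate 3, WT replicate 2 or WT replicate 3 (differences 1.64 to 1.98). Igfbp2 rose by 1.003 but differed from WT replicate 3 by 0.53. The call for Igfbp2 was lost without FGF21-Tg replicate 1, FGF21-Tg replicate 2, WT replicate 1 or WT replicate 2 (differences 0.79 to 0.99). Igf1 had 12.96, 13.09 and 13.13 in FGF21-Tg liver and 13.71, 13.65 and 13.89 in WT liver, below WT on all 3 arrays by less than 2-fold (difference -0.69, adjusted p = 0.0236). Socs2, a feedback inhibitor of growth hormone signalling, had 11.30, 11.43 and 11.79 in FGF21-Tg liver and 10.40, 9.05 and 11.58 in WT liver and did not pass (adjusted p = 0.239). Its mean difference was 1.16 against all 3 WT arrays and -0.07 against the one on the same chip. Ghr, the growth hormone receptor, did not pass (difference -0.45, adjusted p = 0.135).

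Of 59 growth factor, cytokine and chemokine genes, Fgf21 and Inhbb rose and Inhbe fell. Inhbe and Inhbb encode the activin subunits beta E and beta B. Inhbe had 6.20, 6.31 and 6.48 in FGF21-Tg liver and 8.13, 8.58 and 8.17 in WT liver (difference -1.96, SE 0.20, adjusted p = 7.34e-05), with a difference of -1.84 on the chip and an adjusted p of 0.0107 in the block fit. Inhbb rose by 1.15 and differed from WT replicate 3 by 0.88. Lpl, which encodes lipoprotein lipase, had 11.70, 13.12 and 12.81 in FGF21-Tg liver and 11.43, 10.99 and 10.96 in WT liver (difference 1.42, SE 0.39, adjusted p = 0.0749). The call for Lpl was lost without any 1 of the arrays except FGF21-Tg replicate 1, with differences of 1.13 to 1.57 in those 5 fits.

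Of 304 genes tested for transcription factors and cofactors, 6 rose and 1 fell, a share near that of all genes (2.3% against 1.70%). Hes6, a repressor of the basic helix-loop-helix class with male-biased expression, had 10.32, 9.97 and 9.45 in FGF21-Tg liver and 11.66, 11.92 and 11.10 in WT liver (difference -1.65, SE 0.26, adjusted p = 0.00431). Jdp2, a repressor of the AP-1 family, rose (7.30, 7.94 and 8.10 in FGF21-Tg liver and 6.20, 5.600 and 6.74 in WT liver, difference 1.60, SE 0.31, adjusted p = 0.0147, detected on 2 of 3 WT arrays), as did the homeobox gene Hoxa5 (7.76, 7.14 and 6.82 in FGF21-Tg liver and 6.18, 6.04 and 5.80 in WT liver, difference 1.23, SE 0.24, adjusted p = 0.0146, detected on 2 of 3 WT arrays). The call for Hoxa5 was lost without FGF21-Tg replicate 1 (difference 0.96). Lpin1, a phosphatidate phosphatase that also acts as a nuclear coactivator, had 10.69, 11.40 and 10.78 in FGF21-Tg liver and 9.39, 9.46 and 9.41 in WT liver (difference 1.54, SE 0.21, adjusted p = 0.00115) and passed with the chip as a block (adjusted p = 0.0493).

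Ppargc1a, the coactivator PGC-1 alpha, had 8.14, 8.31 and 8.73 in FGF21-Tg liver and 7.03, 6.69 and 7.52 in WT liver (difference 1.31, SE 0.27, adjusted p = 0.0227), and Per1, a clock repressor also induced by glucocorticoids, had 9.23, 9.56 and 9.27 in FGF21-Tg liver and 7.62, 7.72 and 8.51 in WT liver (difference 1.40, SE 0.22, adjusted p = 0.0043). Neither held on the chip, where the differences were 0.87 and 0.84, and Per1 was at 9.18 on average in AL liver, close to FGF21-Tg. The call for Ppargc1a was lost without WT replicate 2 (difference 1.12). Mycl, a relative of the oncogene Myc, rose by 1.14 and held. The call for Mycl was lost without FGF21-Tg replicate 2, FGF21-Tg replicate 3, WT replicate 1, WT replicate 2 or WT replicate 3 (differences 0.78 to 1.29). None of 27 nuclear receptors passed, among them Ppara (-0.71, adjusted p = 0.274) and Nr1i3, the receptor CAR (0.70, adjusted p = 0.122). None of 21 genes for STAT factors, BCL6 and their regulators passed either, Bcl6 having 11.72, 10.08 and 10.61 in FGF21-Tg liver and 9.02, 11.81 and 10.79 in WT liver with overlapping groups. Cux2, a female-biased repressor, had 6.15, 9.08 and 9.63 in FGF21-Tg liver and 6.37, 5.55 and 6.43 in WT liver, high on FGF21-Tg replicates 2 and 3 and within the WT range on replicate 1 (difference 2.17, adjusted p = 0.104).

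Of 16 genes in the list of glucocorticoid-induced and metallothionein genes, 4 rose and 1 fell (31.2% against 1.70%). Mt1, which encodes a zinc- and copper-binding metallothionein, had 14.77, 15.18 and 16.05 in FGF21-Tg liver and 11.34, 11.11 and 11.82 in WT liver (difference 3.91, SE 0.36, adjusted p = 1.94e-05), and its difference without FGF21-Tg replicate 3 was 3.54. Mt2 was not detected in WT liver (7.68, 7.27 and 10.16 in FGF21-Tg liver and 5.06, 5.35 and 5.30 in WT liver) and was at least 5.36-fold higher (adjusted p = 0.00793). For both genes the third FGF21-Tg array, the one with high acute phase transcripts, was the highest, and their calls were kept without it. Fkbp5 rose by 1.41, and by 0.91 against WT replicate 3. Tsc22d1, a leucine zipper gene of the list, fell (6.61, 6.45 and 5.68 in FGF21-Tg liver and 9.01, 9.83 and 8.50 in WT liver, difference -2.87, SE 0.31, adjusted p = 0.000121, detected on 2 of 3 FGF21-Tg arrays). Whether glucocorticoids induce Tsc22d1 was not tested. Of 19 genes of the integrated stress response and serine synthesis, Vldlr, the very low density lipoprotein receptor, was the only one to pass (8.66, 10.12 and 8.44 in FGF21-Tg liver and 6.42, 5.91 and 7.07 in WT liver, difference 2.61, SE 0.43, adjusted p = 0.00485, detected on 2 of 3 WT arrays). The transcription factor gene Atf4 (-0.01, adjusted p = 0.983) and its target Asns (0.18, adjusted p = 0.822) did not pass.

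Of 130 genes in the lists of fuel, lipid, sterol and steroid metabolism, 8 rose and 5 fell (10% against 1.70%), and 10 of these 13 held on the chip. The 13 include Hsd3b5, Cyp2d9, Cyp7b1, Cyp17a1 and Cyp4a14, which were also counted in the P450 or sex-biased lists above. Of 27 genes of fatty acid oxidation and ketone body synthesis, 3 rose (Cyp4a14, Acot3 and Acot4) and Decr1, an auxiliary enzyme for unsaturated fatty acids, fell by 1.07. The call for Decr1 was lost without WT replicate 2 (difference -0.87). Acot3, an acyl-CoA thioesterase of peroxisomes, had 10.08, 12.26 and 10.70 in FGF21-Tg liver and 7.21, 8.0001 and 9.36 in WT liver (difference 2.82, SE 0.60, adjusted p = 0.0236), with a difference of 1.65 on the chip. The call for Acot3 was lost without WT replicate 2 (difference 2.73). Acot4 rose by 1.13, and its difference from WT replicate 3 was 0.69. The call for Acot4 was lost without WT replicate 1 (difference 0.97). Pck1, which encodes the gluconeogenic enzyme phosphoenolpyruvate carboxykinase, had 11.99, 11.74 and 12.16 in FGF21-Tg liver and 10.50, 10.93 and 11.26 in WT liver (difference 1.07, SE 0.25, adjusted p = 0.0408), with a difference of 0.71 on the chip. The call for Pck1 was lost without FGF21-Tg replicate 3, WT replicate 1 or WT replicate 2 (differences 0.87 to 1.09). Among 30 fatty acid and triglyceride synthesis genes, Lpin1 and Plin4 rose and Elovl3 fell. Plin4, a lipid droplet protein gene, had 7.001, 7.86 and 8.25 in FGF21-Tg liver and 6.03, 5.83 and 6.40 in WT liver (difference 1.62, SE 0.28, adjusted p = 0.00793, detected on 2 of 3 WT arrays).

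Of the 151 genes, 80 were in none of the lists of enzymes, carriers, secreted proteins, regulators and pathways. Gm4956, an unnamed gene model and 1 of the 12 largest falls, had signals that lay close together within each group (6.46, 5.95 and 6.10 in FGF21-Tg liver and 10.80, 10.70 and 10.61 in WT liver, difference -4.53, SE 0.19, adjusted p = 7.78e-09, detected on 2 of 3 FGF21-Tg arrays). Sybu, which encodes a microtubule-binding protein of vesicle transport, was 1 of the 12 largest rises. It had 6.33, 8.29 and 8.74 in FGF21-Tg liver and 5.24, 5.14 and 5.56 in WT liver, where it was not detected, and was at least 3.57-fold higher (adjusted p = 0.00808). The genes that follow were picked after their values were seen. Sucnr1, the succinate receptor, had 8.96, 10.04 and 8.19 in FGF21-Tg liver and 11.99, 12.43 and 11.55 in WT liver (difference -2.93, SE 0.34, adjusted p = 0.000253). Dct, known as a melanin enzyme of pigment cells, fell (5.98, 5.26 and 7.94 in FGF21-Tg liver and 9.37, 10.15 and 9.47 in WT liver, difference -3.27, SE 0.52, adjusted p = 0.00457, detected on 2 of 3 FGF21-Tg arrays). Mcm10, a DNA replication factor, and Gpc1, a cell surface proteoglycan, fell by 2.15 and 2.04. Nt5e, the ecto-enzyme that makes adenosine from AMP, had 10.36, 11.03 and 10.41 in FGF21-Tg liver and 8.20, 8.79 and 8.68 in WT liver (difference 2.04, SE 0.22, adjusted p = 0.00013). Steap2, a metalloreductase, and Gal3st1, a sulfatide-synthesizing sulfotransferase, rose by 1.67 and at least 2.98-fold. Cela1, an elastase listed among pancreas markers, had 9.26, 9.57 and 9.14 in FGF21-Tg liver and 11.28, 11.56 and 11.70 in WT liver (difference -2.19, SE 0.16, adjusted p = 2.59e-06), and the other 3 pancreas markers tested did not pass.

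WT replicate 3 is 1 of the 3 arrays behind each call, so a gene with a larger difference meets the 2-fold limit on the chip more easily. Of 46 genes changed over 4-fold, 45 held, the exception being Usp2, a deubiquitinase gene with clock-dependent expression (8.22, 10.04 and 9.84 in FGF21-Tg liver and 5.92, 7.26 and 8.45 in WT liver, difference 2.15, SE 0.55, adjusted p = 0.0561, detected on 2 of 3 WT arrays). The call for Usp2 was lost without FGF21-Tg replicate 2, FGF21-Tg replicate 3, WT replicate 1 or WT replicate 2 (differences 1.51 to 2.18). A further probe for Usp2 had a difference of the opposite sign, as had further probes for Espn, Fancc, Ppl and Ranbp3l among 36 changed genes with several probes. Of 105 changed between 2- and 4-fold, 72 held. The 34 that did not hold still had the same sign on the chip, the smallest being the difference of -0.47 for Tnfaip2, a TNF-induced gene, and for 150 of the 151 all 3 FGF21-Tg arrays lay on the called side of WT replicate 3, Usp2 being the exception. With the chip as a block, 69 genes passed (30 higher and 39 lower, 0.775% of those tested), 54 of them among the 151. These 54 were 18 of the 79 higher and 36 of the 72 lower genes. Vldlr, Mt2, Sybu, Acot3, Cyp17a1, Jdp2, Hes6 and Mup20 were among the changed genes that did not pass with the chip as a block.

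**Figure D5:**
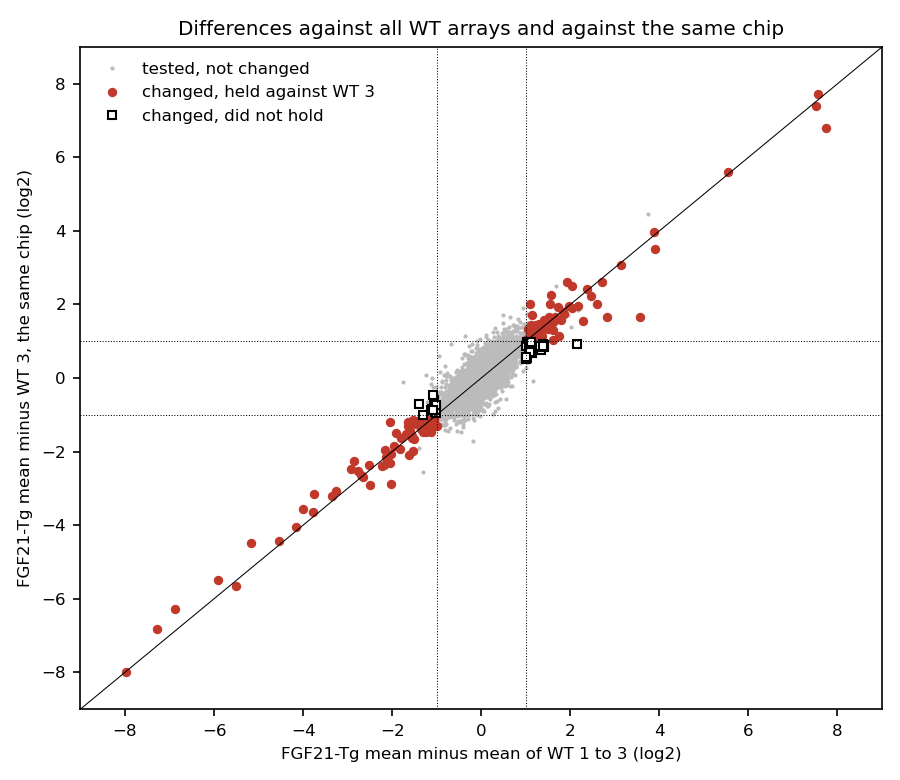
Mean log2 signal of FGF21-Tg arrays minus the mean of all 3 WT arrays (horizontal axis) and minus WT replicate 3 on the same chip (vertical axis) for 8902 genes, with 2-fold limits dotted and equality as a line. The 117 filled points held on the chip, and the 34 open squares, all but 1 between 2- and 4-fold on the horizontal axis, did not.

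The genes that did not hold were 23 of the higher and 11 of the lower genes. Among the higher ones, Ppargc1a and Pck1 of the gluconeogenesis list and Per1 and Fkbp5 of the glucocorticoid list had their highest WT signal on replicate 3. The 11 lower ones included Ces1f, the antiviral gene Oasl1 and Ppp1r3c, which encodes a glycogen-targeting phosphatase subunit, and their differences on the chip were -0.93, -0.71 and -0.86. WT replicate 3 also differed from the other WT arrays for genes that were not called: the lipogenic gene Thrsp had 9.73, 10.27 and 9.58 in FGF21-Tg liver and 11.73, 11.79 and 9.77 in WT liver. Of all 8902 genes, 213 differed by more than 2-fold between WT replicate 3 and the mean of WT replicates 1 and 2, and 12 of these were among the 151. Whether this follows the chip or the liver cannot be told apart with 1 WT array on chip 5.

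AL livers gave a further set of wild-type arrays, from a separate cohort on another chip. WT and AL livers themselves differed in 136 genes at the same limma thresholds, 9 of them among the 151. FGF21-Tg arrays lay beyond all 3 AL arrays on the called side for 133 of the 151 genes (64 higher and 69 lower), against 26.9% of all genes beyond them in either direction. Against AL, a comparison that uses the same 3 FGF21-Tg arrays, 327 genes passed in limma (3.67%), and 117 of the 151 were among them in the same direction. Both requirements, holding on the chip and lying beyond AL, were met by 108 genes. These requirements reuse the FGF21-Tg arrays of the call, and the share of all genes that met both was not counted. Usp2 went the other way, its AL mean of 11.37 being above FGF21-Tg, and Igfbp1 was lower in AL (7.28) than on any WT array.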

How the data were processed

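Total liver RNA was hybridised as cRNA to Illumina MouseRef-8 arrays, and 1 to 3 mice were combined per array, so the spread measured is between arrays. The authors deposited non-normalized probe intensity, read out in BeadStudio (version not given in the sources used here), with a detection p-value for each probe, and separately normalized log2 values that were used only as an alternative. The intensity was background-corrected with nec in limma 3.58.1 under R 4.3.3 (offset 16), quantile-normalized over 14 liver arrays and taken to log2. The brightest detected probe stood for each gene (detection p-value under 0.05 on 3 or more arrays). Groups came from the sample titles. A model of 5 groups with eBayes gave FGF21-Tg minus WT, with Benjamini-Hochberg adjustment over 8902 genes. The fit was tested on simulated data. Members and lists were chosen with earlier results of these data known.

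Genes were named by rule: Fgf21, the 12 largest rises and 12 largest falls, the 4 largest changes of each list and the genes the study names. Other changed genes were named after their values were seen, and unchanged genes for their role. Alternatives were the background correction, normalization, detection filter, threshold, probe rule, chip and replicate blocks, arrays in the fit, SAM and leaving out each array. Of 769 tested probes with no symbol, 18 changed, and they were not described. Other tissues of the series were not described here, and their arrays entered the alternative quantile normalization over all 48 arrays.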

Additional observations from a re-analysis of the deposited data

How the results depend on the processing

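Of the 151 genes changed, 148 were shared with a fit that had the replicate number as a block, which called 154, with 115 of them holding on the chip, 132 beyond the AL arrays, 22 male-biased genes lower and 10 female-biased genes higher. Deviations of same-numbered FGF21-Tg and WT arrays correlated at 0.122, 0.0784 and -0.0499, so the numbers were not taken to pair the samples.

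Counts of changed genes moved by more than 1.5 times under 5 alternatives: 79 without background correction, 50 with the deposited log2 values, 49 with all 16 liver arrays, 69 with the chip as a block and 74 on the same chip only. Counts holding on the chip were 68, 45 and 44 in the first 3 of these. Counts beyond the AL arrays were 74, 48, 47, 62 and 65 in that order. Lower male-biased genes numbered 11 with all 16 liver arrays, and higher female-biased genes 7 with the deposited values, 3 with all 16 arrays, 4 with the chip as a block and 5 on the same chip only. Leaving out 1 array gave 115 to 203 changed genes, 103 to 154 holding on the chip, 105 to 181 beyond AL, 21 to 22 male-biased genes lower and 7 to 12 female-biased genes higher, and 76 of the 151 stayed changed whichever of the 6 arrays was left out. Calls lost numbered 46 without FGF21-Tg replicate 3 and 47 without WT replicate 2. Scaling by the median in place of quantiles gave 106 higher and 61 lower genes, against 79 and 72, and the deposited values 16 and 34. Socs2 changed sign to -0.0733 with the chip as a block and -0.0735 on the same chip only (limma adjusted p = 0.971 and 0.966). The cause of these shifts was not tested. The counts for holding on the chip, for AL and for the sex-biased lists were added after seeing the data. Of the 151 genes, 23 were undetected in 1 group and are bounded only by the lowest detected signal, and for 9 of them (4 higher, 5 lower) that bound is under 2-fold.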
